A study of Mus musculus with 12 samples.

Results

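The regions described here are the H3K9me3 peaks at the centromere-proximal ends of the mouse autosomes, in the liver. A peak was a member if it lay fully between 3000000 and 6000000 on any of chromosomes 1 to 19 (mm10) in any of the 6 peak lists that had been called over input. In all, 38987 of 1667636 listed peaks were members. The number per list ran from 6181 of 265920 in control P5 to 6930 of 286124 in Alb-D2KO adult. A further 4 to 8 peaks per list crossed 6000000 and were left out, and no autosomal peak began before 3000000.

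Mouse chromosomes are telocentric, so the centromere sits at one end, and the pericentromeric DNA beside it is made of major satellite, an AT-rich tandem repeat packed into constitutive heterochromatin. H3K9me3 is laid down there by the Suv39h enzymes and bound by HP1. Most of that satellite is not in the mm10 assembly, where each autosome opens with a gap, and the windows studied here are the first assembled bases behind the gap.

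The 12 samples were 6 H3K9me3 libraries and 6 inputs from livers of C57BL/6 mice, with 1 library of each type for control and Alb-D2KO animals at postnatal day 1 (P1), postnatal day 5 (P5) and in the adult. Alb-D2KO mice lack Dio2, the gene of the deiodinase that makes the active thyroid hormone T3, in cells that express Cre from the albumin promoter (hepatocytes), and the controls carried the same Cre, so that a library also holds chromatin of liver cells without the deletion. Each neonatal sample pooled 3 livers, and adult livers were processed individually. The study describes further P1 pools and adult livers, and does not state how these entered the lists, so each list was treated as 1 library. Since no group had replicates, single genes, regions and chromosomes got no test. Only the pooled shares and ratios were tested, over the lists, with exact permutation tests whose smallest possible p is 0.133 or 0.25 at this size and that treat ages or genotypes as if they were replicates. Sequencing depth is unknown because the lists carry no read counts, and they carry no expression values, so neither the tissue nor the deletion could be checked against marker genes.

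The strongest peaks of the windows lay at the very start of chromosome 9. Of the regions covered in all 6 lists, the 3 with the best mean rank of the listed −log10 p were at chr9:3000297-3004790, chr9:3023453-3026020 and chr9:3019890-3022615. These lie in or beside Gm26870, a lincRNA gene model on the minus strand, and overlap the gene models Gm10722, Gm11168, Gm10717, Gm10718 and Gm10719. The first ranked 2 in Alb-D2KO P1, 2 in control P1, 3 in Alb-D2KO P5, 2 in control P5, 2 in Alb-D2KO adult and 1 in control adult among all peaks of the list. The middle 300 bases of each, read from the plus strand of the reference, are printed because they show what DNA carried the highest scores, and capitals mark the longest run of letters, 48 bases, found in all 3.

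chr9:3002394-3002693: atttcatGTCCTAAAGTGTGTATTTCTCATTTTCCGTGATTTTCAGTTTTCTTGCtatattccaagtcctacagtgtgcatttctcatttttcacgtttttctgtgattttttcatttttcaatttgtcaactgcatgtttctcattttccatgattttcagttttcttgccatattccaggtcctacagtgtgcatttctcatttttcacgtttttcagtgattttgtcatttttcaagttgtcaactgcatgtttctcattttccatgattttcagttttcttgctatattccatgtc
chr9:3024587-3024886: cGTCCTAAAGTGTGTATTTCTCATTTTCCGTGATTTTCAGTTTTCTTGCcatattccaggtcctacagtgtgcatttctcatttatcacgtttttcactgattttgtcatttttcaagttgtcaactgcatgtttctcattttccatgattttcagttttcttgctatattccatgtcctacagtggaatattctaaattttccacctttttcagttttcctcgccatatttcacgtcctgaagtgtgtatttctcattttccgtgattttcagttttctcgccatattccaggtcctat
chr9:3021103-3021402: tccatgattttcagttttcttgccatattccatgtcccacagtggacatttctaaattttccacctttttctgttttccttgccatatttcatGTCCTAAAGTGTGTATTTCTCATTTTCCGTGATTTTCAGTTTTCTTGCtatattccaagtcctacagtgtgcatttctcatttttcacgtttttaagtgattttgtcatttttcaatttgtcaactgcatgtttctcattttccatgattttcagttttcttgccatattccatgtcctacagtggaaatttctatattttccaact

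Of the 300 bases, 296, 290 and 290 were marked as repeats in the reference, and the GC content was 32.7%, 36% and 33.3%. Each of the whole regions repeated itself at a spacing of 234 bases, where 74.7%, 76.3% and 69.6% of the bases matched the base 234 positions further on. The median over spacings of 20 to 600 bases was 31.1%, 30.6% and 31.1%. All 3 are therefore tandem repeats with 1 common unit length, and no repeat library was used here to name the unit. Sampled 100-base stretches of these regions occurred more than once in the reference in 60.9%, 55.6% and 82.8% of cases, and the part of this in the scores was not tested.

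At the first of these regions the listed −log10 p was 1429 in Alb-D2KO P1 and 1274 in control P1. It was 777 in Alb-D2KO P5 and 1491 in control P5, and 464 in Alb-D2KO adult and 421 in control adult. The fold enrichment over input there was 2.58, 2.45, 2.64, 2.61, 2.03 and 2.01 in the same order. The scores were thus far above those of other members, whose median −log10 p ran from 1.45 to 1.63, while the fold was closer to the members' median of 1.77 to 1.86. In Alb-D2KO P5 the first region shared its rank, fold and −log10 p with chr9:3012193-3018714, so a single listed peak spanned both. In every other list these regions had different scores. The P5 scores of Alb-D2KO and control at the first region thus belong to peaks of unlike width. Of the 20 peaks with the highest −log10 p in a list, 6 in Alb-D2KO P1, 7 in control P1, 4 in Alb-D2KO P5, 6 in control P5, 8 in Alb-D2KO adult and 8 in control adult lay in the windows. Chromosome 9 held 4, 5, 3, 4, 8 and 8 of them. Of the 100 highest, 18, 18, 13, 14, 13 and 11 lay in the windows, while members made up 2.46% to 2.66% of all autosomal peaks. These counts were chosen after the values were seen.

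Across the 19 windows together, 56.5 Mb of assembled sequence, the covered share was close to that of the rest of the same chromosomes in neonates and higher in adults. In Alb-D2KO P1 peaks covered 21.2% of the windows and 19.6% of the rest, a ratio of 1.08. In control P1 the shares were 20.7% and 19.2%, a ratio of 1.08. At P5 they were 21.2% and 20.8% in Alb-D2KO (ratio 1.02), and 21.1% and 20.4% in control (ratio 1.04). In the adult they were 19.8% and 15.9% in Alb-D2KO (ratio 1.25), and 20.1% and 16.4% in control (ratio 1.22). The window values therefore lay within 19.8% to 21.2% in all 6 lists, and the rest varied more, from 15.9% to 20.8%. Without chromosomes 3 and 9, left out after their values were seen, the ratio was 0.84, 0.84, 0.81 and 0.81 in the neonatal lists and 1.09 and 1.06 in the adult ones. The neonatal direction thus rested on these chromosomes, and the adult excess was smaller without them. The median ratio over the 19 chromosomes was 0.78 to 0.95 in the neonatal lists, 1.1 in Alb-D2KO adult and 0.97 in control adult. The mean ratio was 1.05 over the 4 neonatal lists and 1.24 over the 2 adult ones, with no overlap (exact two-sided permutation test, p = 0.133, which is the smallest this design allows, adjusted p = 0.267 over 4 tests). By number of peaks instead of covered bases the age direction turned. All 4 neonatal ratios, 1.0972 to 1.1297, then lay above both adult ones, 1.0892 and 1.045.

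Members made up 2.66%, 2.65%, 2.61%, 2.58%, 2.56% and 2.46% of the autosomal peaks in the same order of lists, against 2.36% of the assembled autosomal bases. The median width of a member was 998 bp in Alb-D2KO P1 and 934 bp in control P1, against 1016 and 963 bp in the rest. In adults members were wider than the rest, at 865 against 806 bp in Alb-D2KO and 899 against 819 bp in control. The widest member spanned 73140 bp, in Alb-D2KO P1. Peaks with −log10 p above 2 made up 8.86% of members and 6.6% of the rest in Alb-D2KO P1, and 15.4% and 12.4% in control adult. On such peaks alone the ratio of window to rest was 1.52 and 1.52 for P1, 1.37 and 1.45 for P5, and 1.53 and 1.54 for adults (Alb-D2KO, then control).

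**Figure D1:**
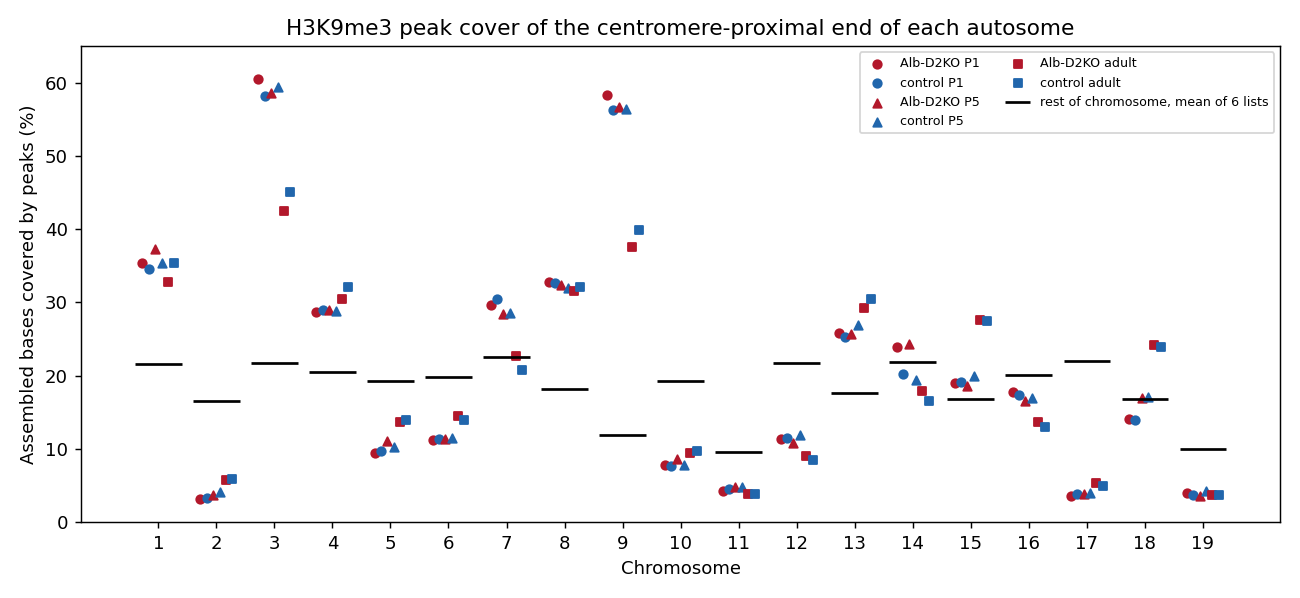
Share of assembled bases covered by H3K9me3 peaks (%) in the window of each autosome, with 1 point per list (red Alb-D2KO, blue control; circles P1, triangles P5, squares adult), and the rest of the chromosome as a black line (mean of the 6 lists). The windows of chromosomes 3 and 9 stand above all others, and those of chromosomes 2, 11, 17 and 19 lie near the bottom, all with means under 5%.

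Single chromosomes differed widely. The window of chromosome 3 was the most covered in every list. It reached 60.4% in Alb-D2KO P1, 58.2% in control P1, 58.6% in Alb-D2KO P5, 59.4% in control P5, 42.5% in Alb-D2KO adult and 45% in control adult. Chromosome 9 followed, at 58.2%, 56.2%, 56.7%, 56.4%, 37.5% and 39.9%. Its distance from the rest of its own chromosome was the greatest in every list, with ratios from 3.2 in Alb-D2KO adult to 5.09 in Alb-D2KO P1. Chromosome 1 had a mean share over the lists of 35.1% and chromosome 8 one of 32.2%. At the other end stood chromosomes 19, 17, 2 and 11, with means of 3.82%, 4.25%, 4.34% and 4.34%. Chromosome 17 had the lowest ratio in every list, between 0.15 in Alb-D2KO P1 and 0.29 in Alb-D2KO adult.

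The window exceeded the rest on 8 of 19 chromosomes in Alb-D2KO P1, 8 in control P1, 7 in Alb-D2KO P5, 8 in control P5, 10 in Alb-D2KO adult and 9 in control adult. It was at least 1.5 times the rest on 5, 5, 4, 4, 7 and 7. To read these counts, 793 windows of 3 Mb were laid end to end over the autosomes, and the same limit was passed by 27.5% of them in Alb-D2KO P1, 27.2% in control P1, 26.7% in Alb-D2KO P5, 26.6% in control P5, 24.2% in Alb-D2KO adult and 24.6% in control adult. The neonatal counts, 4 or 5 of 19, were near that background, and the adult counts, 7 of 19, were above it. Windows simply above the rest of their chromosome made up 38.5%, 38.2%, 38.8%, 38.7%, 44.4% and 44.6% of the 793 in the same order. The counts of 7 to 10 of 19 above the rest were near those shares. The window was the most covered of its whole chromosome on 1 of 19 chromosomes in 5 of the lists and on 0 in Alb-D2KO adult. That was chromosome 9 in the neonatal lists and chromosome 3 in control adult. The median share of the 19 windows lay between the 55.5 and the 62.2 percentile of all windows. The last full window at the opposite end had a median of 2.33% to 6.74%. It was less covered than the first on 15 of 19 chromosomes in each neonatal list and on 14 in each adult list.

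**Figure D2:**
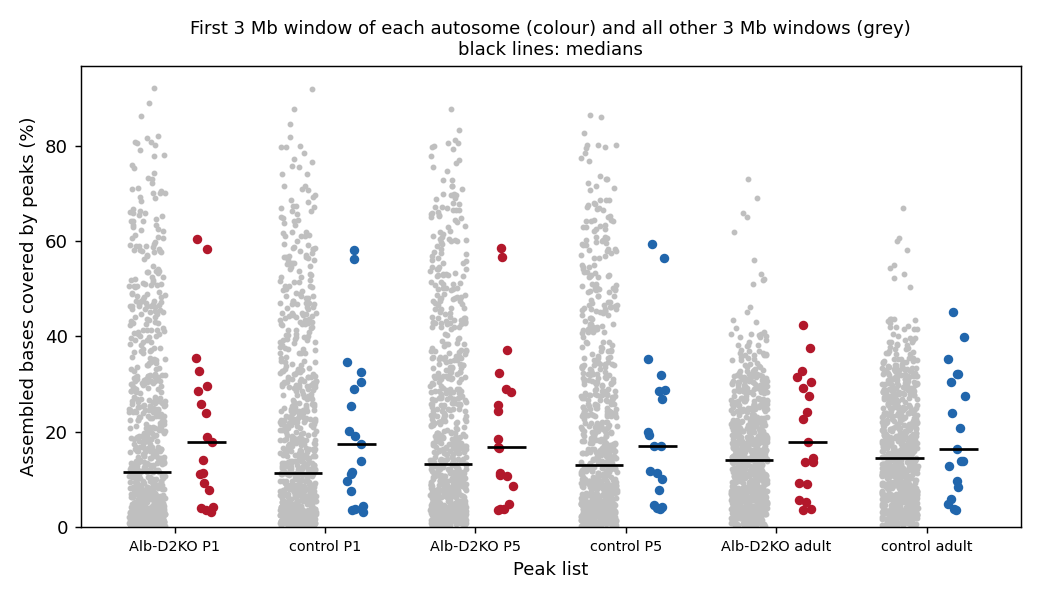
Share of assembled bases covered by peaks (%) for the first 3 Mb window of each autosome (coloured points, 19 per list) and for every other 3 Mb window (grey points), with medians as black lines. The coloured points lie inside the range of the grey ones, whose top is well above them in every list, and their median is the higher one in all 6.

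Cover was highest right behind the gap and fell steeply from there. In the first 100 kb (3.0 to 3.1 Mb, of which 1.5 Mb in all is assembled) it was 58.3% in Alb-D2KO P1, 58.4% in control P1, 52.1% in Alb-D2KO P5, 53% in control P5, 43.3% in Alb-D2KO adult and 40.1% in control adult. From 3.1 to 3.5 Mb it was 23.6% to 27.6% over the lists, from 3.5 to 4 Mb 16.4% to 17.9%, from 4 to 5 Mb 17.2% to 18.8%, and from 5 to 6 Mb 19.9% to 21.8%. In steps of 100 kb the lowest level within the first Mb came between 3.5 and 3.6 Mb, at 11.9% to 14.7%. Between 6 and 9 Mb the share was 22.5% to 25.4%. The share of sampled 100-base stretches found more than once in the reference fell alongside, from 40.1% in the first step to 15.1%, 11% and 8.62%, and its part in the profile was not tested.

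**Figure D3:**
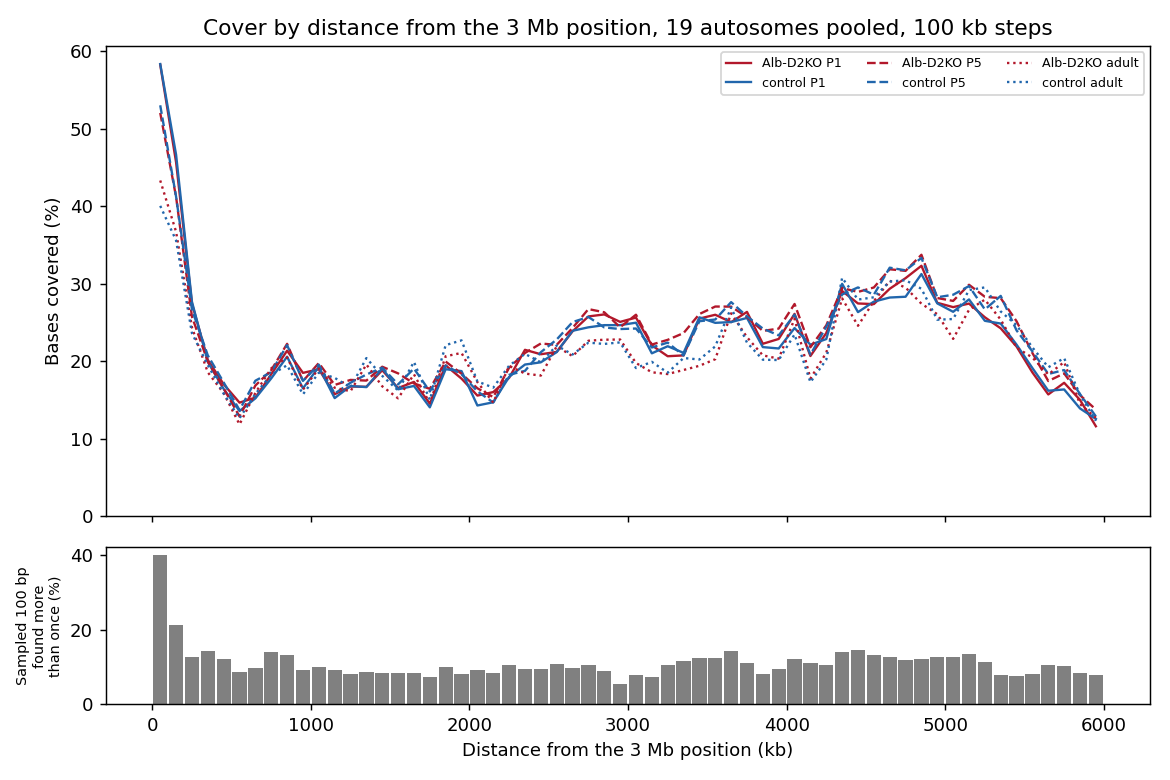
Share of bases covered by peaks (%, upper panel, 1 line per list) and share of sampled 100-base stretches found more than once in the reference (%, lower panel) against distance from 3000000 (kb), where the opening gap ends on most autosomes, with the 19 autosomes pooled in steps of 100 kb. Both are highest in the first step, where cover is 40.1% to 58.4%.

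The first 100 kb counted from each chromosome's own first assembled base exceeded the remainder of its window on 18 chromosomes in 4 of the lists and on 17 in Alb-D2KO P5 and Alb-D2KO adult. Chromosome 11, whose window was among the least covered, began with 89.4% to 90.9% in the 4 neonatal lists and with 61.7% and 60.4% in the adults. Chromosome 3 began with 85.7% to 93.2% in neonates and 55.2% to 64.8% in adults. The sampled stretches there occurred more than once in 4.7% and 4.95% of cases. Chromosome 10, at 5.91%, began with 34.2% to 48.8% in neonates and with 4.64% and 5.36% in adults, and chromosome 17, at 5.41%, with 37.8% to 49.6% and then 26.2% and 15.1%. Chromosome 14 began low, at 9.61% to 20.1%.

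The covered share followed the repeat content of the windows. Over the 19 windows, Spearman's rho between the repeat-masked share of the sequence and the covered share was 0.91, 0.9, 0.9, 0.89, 0.85 and 0.85 in the order of the lists above, as a description over chromosomes that share 1 library per list. The windows of chromosomes 3 and 9 were 54.8% and 53.1% masked, and those of chromosomes 17, 11 and 2 were 26.8%, 29.4% and 29.6% masked. Over the other 774 windows rho was 0.84 to 0.86, so the relation was not particular to the chromosome ends. The covered share also fell with GC content. There rho was -0.65, -0.66, -0.72, -0.68, -0.83 and -0.82 over the 19 windows, and between -0.84 and -0.79 over the other 774. The part of each in the cover was not tested. The windows as a whole held more repeats than the rest, 40% against 33.3%, and more sampled stretches found more than once, 10.9% against 5.77%, at nearly the same GC content, 42.1% against 41.9%. Restricted to bins of 1 kb with no such stretch, the ratio of window to rest was 0.9997 and 1.0036 for P1, 0.94 and 0.97 for P5, and 1.23 and 1.19 for adults (Alb-D2KO, then control).

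**Figure D4:**
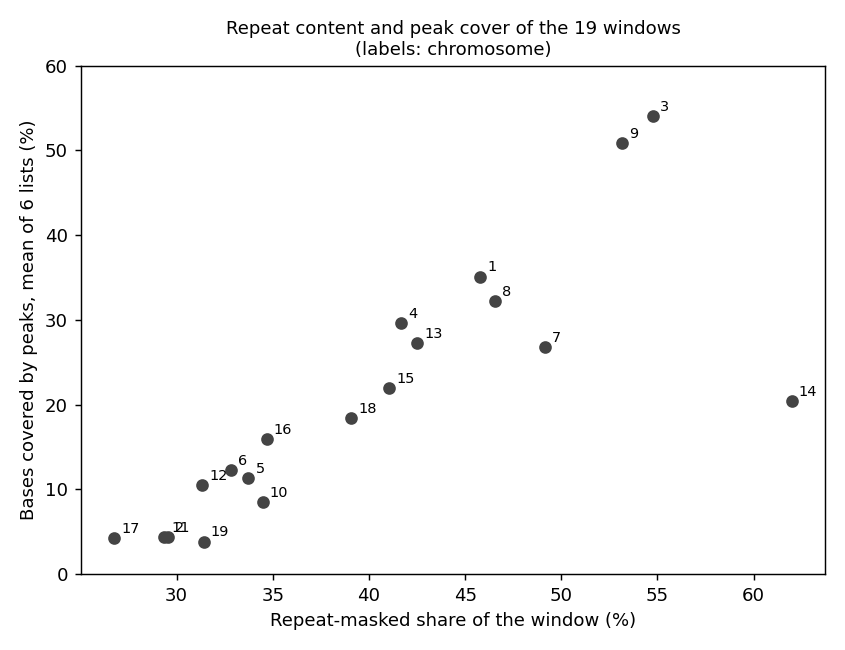
Mean share of bases covered by peaks over the 6 lists (%) against the repeat-masked share of the sequence (%) for the windows of the 19 autosomes, each point labelled with its chromosome. Cover increases with repeat content, and chromosome 14, at 62% masked and 20.4% covered, lies apart below the others.

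Ages separated on most chromosomes, in both directions. On 7 chromosomes (3, 7, 9, 11, 12, 14 and 16) all 4 neonatal lists had a higher window share than both adult lists. On 9 chromosomes (2, 4, 5, 6, 10, 13, 15, 17 and 18) all 4 were lower. Among all 793 windows 36.6% were higher in neonates by this rule and 47.8% lower, so the split of the 19 was near the background of single windows. The rest of the same chromosomes, taken whole, was higher in neonates on 14 chromosomes by this rule and lower on 1. Chromosomes 3 and 9 lost share, from 58.2% or more to 45% or less and from 56.2% or more to 39.9% or less. The next most covered windows overlapped between ages. Chromosome 1 had 34.6% to 37.2% in neonates and 32.7% and 35.4% in adults, and chromosome 8 had 31.9% to 32.8% and then 31.6% and 32.2%. Chromosome 15 went from 18.6% to 19.9% in neonates to 27.6% and 27.5% in adults. Chromosome 18 went from 14% to 17.1% in neonates to 24.2% and 23.9%.

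Genotypes differed little. The Alb-D2KO share minus the control share of the pooled windows was 0.44 percentage points at P1, 0.15 points at P5 and -0.31 points in adults, against 0.42, 0.4 and -0.56 in the rest. The Alb-D2KO share was the higher on 10 of 19 chromosomes at P1, on 8 at P5 and on 10 in adults. Among all windows it was the higher in 58.8% at P1, 60% at P5 and 29.1% in adults. The adult count was thus above that background and the P5 count below it. The Alb-D2KO share was at least 1.1 times control on 1 chromosome at P1, on 2 at P5 and on 0 in adults, where 9.21%, 8.83% and 6.94% of all windows passed that limit. Control was at least 1.1 times Alb-D2KO on 0, 1 and 0 chromosomes, where 10.8%, 11.7% and 23.6% of all windows passed. As shares of 19 chromosomes the counts at the limit of 1.1 times were near or below the background. Over the 3 ages as pairs, the mean covered share of the windows was 20.7% in Alb-D2KO and 20.6% in control, a difference of 0.09 points (exact two-sided sign-flip test, p = 0.75, adjusted p = 1 over 4 tests, smallest p possible 0.25).

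Chromosome 14 had the largest positive difference at both neonatal ages. Its window was 24% covered in Alb-D2KO P1 and 20.3% in control P1, 24.3% in Alb-D2KO P5 and 19.4% in control P5, and 18% and 16.5% in the adult. In that window 83.7% of the sampled stretches occurred more than once, and only 11 bins of 1 kb had none that did, so positions there are uncertain. Those bins were 9.09% covered in Alb-D2KO P1 and 10.1% in control P1, and 13.8% in Alb-D2KO P5 and 13.6% in control P5. They are too few to decide whether the difference holds outside repeated sequence. Without chromosome 14, chosen after its value was seen, the pooled difference was 0.25 at P1 and -0.11 at P5, which turned the direction at P5. Of its 63 protein-coding gene models, 60 have only a Gm number as a name.

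In 3 comparison lists the authors had called Alb-D2KO H3K9me3 with age-matched control H3K9me3 as the background, and these held peaks in the direction of more signal in Alb-D2KO. With −log10 p above 2, 356 of 10049 such autosomal peaks at P1 lay in the windows, as did 244 of 9029 at P5 and 425 of 15552 in adults. They covered 5.96 kb per assembled Mb in the windows and 3.44 in the rest for P1, 3.42 and 3.25 for P5, and 6.4 and 5.69 for adults. Chromosome 11 held the most at P1 (55.4 kb), chromosome 3 at P5 (26 kb) and chromosome 9 in adults (42.9 kb). For scale, the Alb-D2KO lists over input, limited in the same way, had window to rest ratios of 1.52, 1.37 and 1.53, and the comparison lists 1.73, 1.05 and 1.12.

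Lists shared bases to a similar degree in the windows and elsewhere in neonates. The Jaccard index, which divides the bases in both lists by those in either, of Alb-D2KO and control was 0.44 in the windows and 0.45 in the rest at P1, and 0.45 and 0.46 at P5. In the adult it was 0.41 against 0.34, higher in the windows on 17 of 19 chromosomes. The bases shared at P1 were 60.8% of the Alb-D2KO bases and 62.1% of the control bases. All 6 lists covered 3.85% of the windows and 2.75% of the rest. This shared part was made of 2441 regions with a median length of 471 bp and 2.17 Mb in total. On chromosome 3 it took 10.7% of the window, on chromosome 9 8.89%, and on chromosome 17 0.28%. The widest shared regions on the 3 most covered windows were chr3:3071388-3077623, with no annotated gene, chr9:3012193-3018714, in Gm26870, and chr1:3271088-3279722, in Xkr4.

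The windows hold 1454 annotated genes (GENCODE M21), of which 630 are protein-coding, 221 lncRNAs and 399 pseudogenes. By the sections in the lists, 65.8% of members were intergenic in Alb-D2KO P1 (95% Wilson interval 64.7% to 67%, counting error only), against 65.2% in the rest, and 68.5% in Alb-D2KO adult, against 66.7%. Introns held 20.9% and 19.3%, against 21.9% and 21% in the rest, so these 2 large sections were close to those elsewhere. The small sections differed, in the same direction in all 6 lists. Exons or UTRs held less, 4.45% and 4.72% against 6.62% and 6.56%. Transcription starts held more, 5.24% and 4.65% against 4.05% and 3.54%, as did transcription ends, 3.55% and 2.84% against 2.26% and 2.23%. Of the protein-coding genes, 143 had some cover in all 6 lists and 306 had none in any. In only 15 was at least 50% of the length covered in every list, and 9 of these were on chromosome 9.

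Among genes of at least 2 kb, those most covered in all lists were Gm10717, Gm10719 and Gm11168 on chromosome 9, and Vmn1r63, Zfp958 and Sfi1. Gm10717 was covered over 100% of its length in all neonatal lists and over 81.6% in both adults, and it overlaps the second of the tandem-repeat regions above. Vmn1r63, a vomeronasal pheromone receptor gene on chromosome 7, was at 100% in 5 lists and at 75.2% in control adult, but its mean fell from 95.9% to 16.7% when peaks needed a −log10 p above 2, and only control P1 then covered it. Zfp958, a zinc finger gene on chromosome 8, had between 68% and 78.8%, with a mean of 71.8%, and 66.9% at that limit. Sfi1, which encodes a centrin-binding protein on chromosome 11, was at 100% in Alb-D2KO P1, 98.8% in control P1, 98.7% in Alb-D2KO P5, 100% in control P5, 66.1% in Alb-D2KO adult and 61.4% in control adult, with a mean of 87.5%, and 82.9% at that limit. Among other genes, the lincRNA Gm26870 had 78.2% to 94.8%, the pseudogene Gm44821 68.2% to 100% and the lincRNA AI838599 66.3% to 85.1%.

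Multicopy families differed. The 24 Vmn1r genes had a median cover of 95.2% in Alb-D2KO P1, 94.5% in control P1, 100% in Alb-D2KO P5, 70.7% in control P5, 44.1% in Alb-D2KO adult and 18.1% in control adult, where the median of all protein-coding genes was 0 in every list. The 8 Akr1c genes, a cluster of aldo-keto reductases of steroid metabolism on chromosome 13, had medians of 24.8%, 28.8%, 16.7%, 16.9%, 5.26% and 4.45%, so that both adults were below all neonates. With −log10 p above 2, both the Vmn1r and the Akr1c genes had a median of 0 in every list. The 12 Zfp genes had a median of 0 in 5 lists and of 2.14% in Alb-D2KO adult. The 3 Vmn2r, 5 Olfr, 4 Pira or Lilr and 2 Speer genes had medians of the mean over lists of 10.2%, 28.1%, 0.9% and 47.4%.

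Of 26 genes listed for liver metabolism and transport, 18 lay in the windows, and their median cover was at most 4.52% in any list. That was above the protein-coding genes of the windows as a whole, whose median was 0 in every list. The median of the mean over lists was 2.86% for the 18 and 0.08% for all 630. All 18 had some cover in at least 1 list, where 306 of the 630 had none. Cpt1a, which brings fatty acids into mitochondria, Lrp5, a Wnt coreceptor, Prkaa1, an AMPK subunit, and Pon1, a paraoxonase, had means over the lists of 0.07%, 0.06%, 0.12% and 0.14%. Akr1c6 was the most covered, at 75.6% in Alb-D2KO P1, 56.4% in control P1, 40% in Alb-D2KO P5, 40.6% in control P5, 10% in Alb-D2KO adult and 16.5% in control adult. Akr1c14 had 39.1% to 47.8% in neonates and 14.6% and 19.6% in adults. Ghr, the growth hormone receptor, had 9.04% to 14.4% in neonates and 1.5% and 1.34% in adults. C6, a terminal complement component, had 21.5% to 32.9% in neonates and 12.9% and 14.3% in adults, while its neighbour C7 had 5.09% to 12% and then 29.3% and 30.3%. Oxct1, which uses ketone bodies, also had more in adults, 12.7% and 12.1% after 1.56% to 3.27%. These values rest on weak peaks: with −log10 p above 2 Akr1c6 had no cover in any list, and the mean over lists fell from 35% to 4.13% for Akr1c14, from 7.75% to 0.5% for Ghr and from 23.5% to 0.59% for C6.

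**Figure D5:**
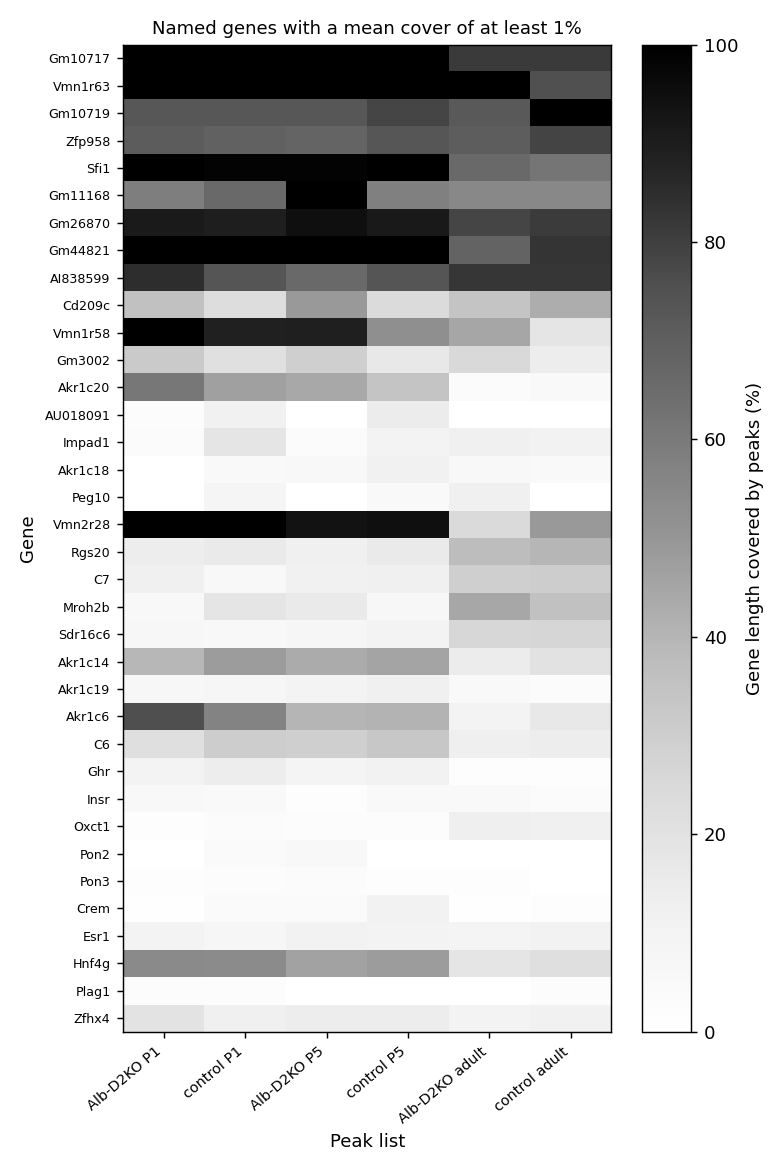
Share of gene length covered by peaks (%, grey scale from 0 to 100) for the named genes with a mean of at least 1%, by list. Sfi1, Gm10717 and Vmn1r63 are dark throughout, Akr1c20 and Vmn2r28 are darker in the neonatal lists, and Rgs20 and C7 are darker in the adult ones.

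Of 13 genes listed as nuclear factors and chromatin proteins, 11 lay in the windows. Klf6 and Sox17, both transcription factor genes, had no cover in any list. Arid1b, of the BAF remodelling complex, Dnmt3a, a DNA methyltransferase, and Crebbp, an acetyltransferase, had means of 0.02%, 0.04% and 0.22%. Hnf4g, a nuclear receptor gene on chromosome 3, was the most covered, at 54%, 53.8%, 45.9%, 48%, 18.3% and 21.8% in the order of the lists. Zfhx4, a zinc finger homeobox gene, followed with 9.98% to 19.1%, and Esr1, the oestrogen receptor, had 7.2% to 10.7% in all of them. At Hnf4g all 4 neonatal values lay above both adult values, but with −log10 p above 2 its mean fell from 40.3% to 1.35%, that of Zfhx4 from 13.5% to 0.57% and that of Esr1 from 9.46% to 2.11%.

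The genes with the largest age differences were chosen for them, and their values are a description. Vmn2r28 had 93.5% to 100% in neonates and 24.4% and 49% in adults, with a mean of 76.9% that fell to 20% at a −log10 p above 2. Akr1c20 had 34.2% to 60.7% and then 3.11% and 4.35%. In the other direction, Rgs20, a regulator of G protein signalling, had 11.9% to 15.9% in neonates and 37.3% and 39.8% in adults. Sdr16c6, a short-chain dehydrogenase gene, had 5.36% to 10.2% and then 25.6% and 26.4%. With −log10 p above 2 the mean fell from 32.2% to 4.55% for Akr1c20. It fell from 22.4% to 5.81% for Rgs20 and from 13.5% to 0.52% for Sdr16c6. Akr1c20 then had cover only in control P1, at 5.72%, and control P5, at 21.6%.

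Genes were also chosen for a genotype difference of 1 direction at P1 and P5. Cd209c, a C-type lectin gene, was covered over 35.4% in the Alb-D2KO list and 22.4% in the control list of P1, 49.1% and 23.7% in those of P5, and 34.1% and 42.5% in those of adults. With −log10 p above 2 it had 6.73% and 0% at P1 and 0% in both lists of P5. Its sampled stretches occurred more than once in 43.8% of cases. Vmn1r58 had 100% and 89% at P1, then 89.3% and 52.1% at P5, with adult values of 44.8% and 18.1%. With −log10 p above 2 its direction turned, to 0% and 49.9% at P1 and 0% and 5.27% at P5. Gm3002, in the repeated sequence of chromosome 14, had 31.3% and 21.2%, and 29.2% and 16.7%, which became 2.88% and 1.06%, and 0% and 2.64%, at that limit. Impad1, which encodes a Golgi phosphatase, had 3.23% in Alb-D2KO against 18.1% for control at P1, and 3.17% against 9.55% at P5. Peg10, an imprinted gene expressed from the paternal allele, had 0% and 8.44% at P1, then 0% and 4.41%, and in adults the opposite, 12.2% and 0%. With −log10 p above 2 Impad1 had no cover in any neonatal list and Peg10 none in any list. With 1 library per group these differences have no replicate check.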

How the data were processed

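Per the labels, the authors used BWA, MACS2 and Partek with mm10, and the methods describe broad peaks called with input as background. The deposited lists give, for each peak, its start and end, a −log10 p-value that MACS2 averages across a broad peak, and a linear fold ratio of library to background. The authors' comparison lists (Alb-D2KO called over control) were used for positions and with a −log10 p limit of 2 only. Input libraries entered through the authors' calling.

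Overlapping peaks were merged, and covered bases were divided by the assembled (non-N) bases of GRCm38. The rest of a chromosome is everything past 6000000. Peak starts were taken as 0-based, which leaves an uncertainty of 1 base in printed positions. A 100-base stretch was taken every 100 bases and its exact copies on either strand of the nuclear chromosomes were counted. Diverged copies, and copies missing from the assembled chromosomes, were not counted, so a stretch found once need not be unique. Genes came from GENCODE M21. Interval arithmetic and copy counting were tested on simulated data. Python 3.11.15 with numpy 2.4.6, pandas 2.3.3 and scipy 1.17.1 was used. The members, gene lists and rules were chosen with earlier results of these data known. Named genes were those most covered in every list (at least 2 kb), those with the largest genotype or age differences (at least 10 kb), and all members of the listed groups. Exact permutation tests over the lists, with Benjamini-Hochberg adjustment over 4 tests, were added after the values were seen. Intervals are 95% Wilson intervals over peaks, and depth is unknown. Alternatives were a −log10 p limit, clipped edges, a window to 9 Mb, whole length as denominator, number of peaks and merging within 1000 bp. Others were leaving out chromosomes, and bins of 1 kb with no sampled stretch found more than once (bins without repeated stretches).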

Additional observations from a re-analysis of the deposited data

Results flagged for a closer look

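The Alb-D2KO minus control difference in covered share of the pooled windows was of one sign in neonates and of the other in the adult, at 0.437 percentage points (P1), 0.152 points (P5) and -0.31 points (adult). The difference between ages was not tested, and the rest of the chromosomes had the same signs, at 0.42, 0.4 and -0.56.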

How the results depend on the processing

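Values are given for Alb-D2KO then control at P1, then P5, then the adult. Against the main window to rest ratios of 1.08, 1.08, 1.02, 1.04, 1.25 and 1.22, peaks with −log10 p above 2 gave 1.5201, 1.5211, 1.3723, 1.4529, 1.5337 and 1.5381, a window to 9 Mb 1.1527, 1.1592, 1.1293, 1.1377, 1.348 and 1.3359, and numbers of peaks 1.1297, 1.1254, 1.1092, 1.0972, 1.0892 and 1.045. By numbers of peaks all 4 neonatal ratios lay above both adult ratios, opposite to covered share. Bins without repeated stretches gave 0.9997, 1.0036, 0.9383, 0.9715, 1.2337 and 1.1922, so that 3 neonatal ratios turned. Leaving out chromosomes 3 and 9, chosen after seeing the data, gave 0.836, 0.8415, 0.8067, 0.8116, 1.0939 and 1.0646, so that all 4 neonatal ratios turned. Smaller shifts came from whole length (1.0718 and 1.0728 at P1, 1.0302 in control P5, 1.2422 in Alb-D2KO adult), merging (1.0719 and 1.0744 at P1, 1.0324 in control P5), clipped edges (1.2269 in control adult) and leaving out chromosome 14, also chosen after seeing the data (1.0926 in control P1, 1.0261 and 1.0523 at P5, 1.257 and 1.2395 in the adult). The number of chromosomes above the rest moved past 1.5 times only in Alb-D2KO P1 with −log10 p above 2, from 8 to 14.

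The Alb-D2KO minus control difference at P1, P5 and in the adult was 0.437, 0.152 and -0.31 percentage points. It became 0.201, -0.0688 and -0.268 with −log10 p above 2, and 0.445, 0.145 and -0.323 with clipped edges. To 9 Mb it was 0.371, 0.279 and -0.555, over whole length 0.433, 0.151 and -0.307, and after merging 0.237, 0.287 and -0.224. In bins without repeated stretches it was 0.346, -0.109 and -0.276. Without chromosomes 3 and 9 it was 0.238, 0.2 and -0.0557, and without chromosome 14 it was 0.253, -0.113 and -0.408. As peaks per assembled Mb it was -5.43, 2.04 and 2.6, opposite to covered share at P1 and in the adult. The cause of these turns was not tested. Of 49 named genes, 42 had a lower mean cover with −log10 p above 2. At that limit 18 had none, among them Klf6 and Sox17, which had none without it. Unknown depth limits every comparison between lists. The ages can be taken as 3 pairs of genotypes, and the sign-flip test in the report, added after seeing the data, did so.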
